A study of Mus musculus with 23 samples.

Results

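*Camk2a*, *Camk2b*, *Camk2d* and *Camk2g*, which encode the catalytic subunits of CaMKII, were measured together with 6 genes that act around them: the CaM kinases *Camkk2*, *Camk4* and *Camk1d*, the CaMKII inhibitor proteins *Camk2n1* and *Camk2n2*, and *Nrgn*, which encodes the calmodulin-binding protein neurogranin. These 10 genes, of 56941 in the count tables, were found by their Ensembl identifiers in the GRCm39 annotation, and all 10 passed the filter on low counts. The genes were chosen from measured values of these same libraries, with the difference between CRE and RFP already known, so their values under that comparison are given as a description, and nothing is read from how many of them pass a threshold on it.

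RNA came from primary hippocampal neurons of newborn (P0) mice homozygous for NEDD8cKO, a *Nedd8* allele in which LoxP sites flank an inner stretch of exons that CRE removes. All cultures carried this allele and were infected with lentivirus, which encoded RFP in the RFP group and RFP together with CRE recombinase in the CRE group. The labels give 12 days in culture for the extraction. The 23 libraries, 12 CRE and 11 RFP, are named here by group and by the set (1 to 3) and replicate numbers of their titles; neither the labels nor the Methods say what a set is. No uninfected group is analysed here, and the cultures were dissociated hippocampus, so they may hold cells other than neurons. The study's legends give as many animals or biological replicates behind these libraries as there are sets, so several libraries share a biological replicate. The tests take each library as 1 sample, their p-values measure the spread between libraries, which may be technical in part, and they may be too small. Log2 fold changes from counts summed per set and group, 3 against 3, are given for *Camk2a*, *Camk2b* and *Nrgn*. For the pathway genes only the numbers called on such sums are given, so the p-values of single pathway genes rest on libraries.

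Calcium that enters a neuron binds calmodulin, and calcium-bound calmodulin activates the CaM kinases. CaMKII assembles from several subunits, phosphorylates itself and can stay active after calcium has dropped, and it is abundant at excitatory synapses of the hippocampus, where it is known for its part in long-term potentiation. CaMKK switches on CaMKI and CaMKIV in a separate cascade that reaches the nucleus. Neurogranin binds calmodulin when calcium is low, and the Camk2n proteins bind and inhibit active CaMKII.

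The groups were compared over 21 libraries, 11 CRE and 10 RFP, the ones the study kept in its table of counts, which leaves out CRE 3-3 and RFP 3-2. Total counts per library ran from 7430401 to 13345552 in CRE and from 9833872 to 17112815 in RFP. *Nedd8* itself was at 5.92 to 18.0 CPM (counts scaled to a common library total) in CRE and at 44.1 to 76.0 CPM in RFP libraries, without overlap. A group of 4 libraries stood apart from the other 19. In CRE 1-3 and CRE 3-3, mitochondrial genes held 0.261% and 1.83% of counts, and in RFP 2-4 they held 3.43%, against 7.0% to 11.1% in the other 19. RFP 3-2 had 24.2% of its counts on *Rn18s-rs5*, against 0.856% to 4.06% in the other 19, and CRE 3-3 had only 1546796 counts. Where one of them moves a value of the members by much, the value without it, or over the other 19 libraries, is given beside it.

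*Camk2a* was the member with the largest difference between the groups (chromosome 18, 61058473 to 61121224, plus strand, GRCm39). Its level ran from 844 to 1879.9 CPM in the 10 RFP libraries (median 1652) and from 226 to 558 CPM in the 11 CRE libraries (median 397). Every CRE library lay below every RFP library. The log2 fold change of CRE against RFP was -1.99 ± 0.16 (SE), a 3.97-fold lower level. In the libraries left out, RFP 3-2 had 707 CPM and CRE 3-3 had 485 CPM, which kept the order of the groups. With counts summed per set the log2 fold change was -2.04 ± 0.14. Within the RFP group, set 3 was the most uneven, with 844 CPM in RFP 3-4 and 1719 CPM in RFP 3-3.

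*Camk2b* (chromosome 11, 5915791 to 6016362, minus strand), which encodes the second main CaMKII subunit of brain, differed less. It ran from 889 to 1253 CPM in RFP libraries (median 1031) and from 376 to 1069.5 CPM in CRE libraries (median 567). All CRE libraries except CRE 1-3, which is one of the libraries that stand apart, lay below every RFP library, and without it the highest was 747 CPM. The log2 fold change was -0.77 ± 0.13, a 1.70-fold lower level, and it was -0.85 ± 0.09 over the 19 libraries and -0.85 ± 0.11 with counts summed per set.

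*Camk2d* (chromosome 3, 126389945 to 126639982, plus strand) and *Camk2g* (chromosome 14, 20784942 to 20844541, minus strand) encode CaMKII subunits that many tissues express. *Camk2d* ran from 69.3 to 149 CPM in RFP (median 93.6) and from 38.0 to 144 CPM in CRE (median 105), with 67.3 CPM as the lowest of CRE libraries without CRE 1-3. *Camk2g* ran from 107 to 155 CPM in RFP (median 126) and from 115 to 185 CPM in CRE (median 143). The groups overlapped for both genes. The log2 fold changes were 0.18 ± 0.17 for *Camk2d* and 0.14 ± 0.11 for *Camk2g*, so neither gene was lower in CRE as *Camk2a* and *Camk2b* were. With the trend on GC content removed from each library, *Camk2d* had 0.30 ± 0.13 (edgeR adjusted p = 0.0735).

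**Figure D1:**
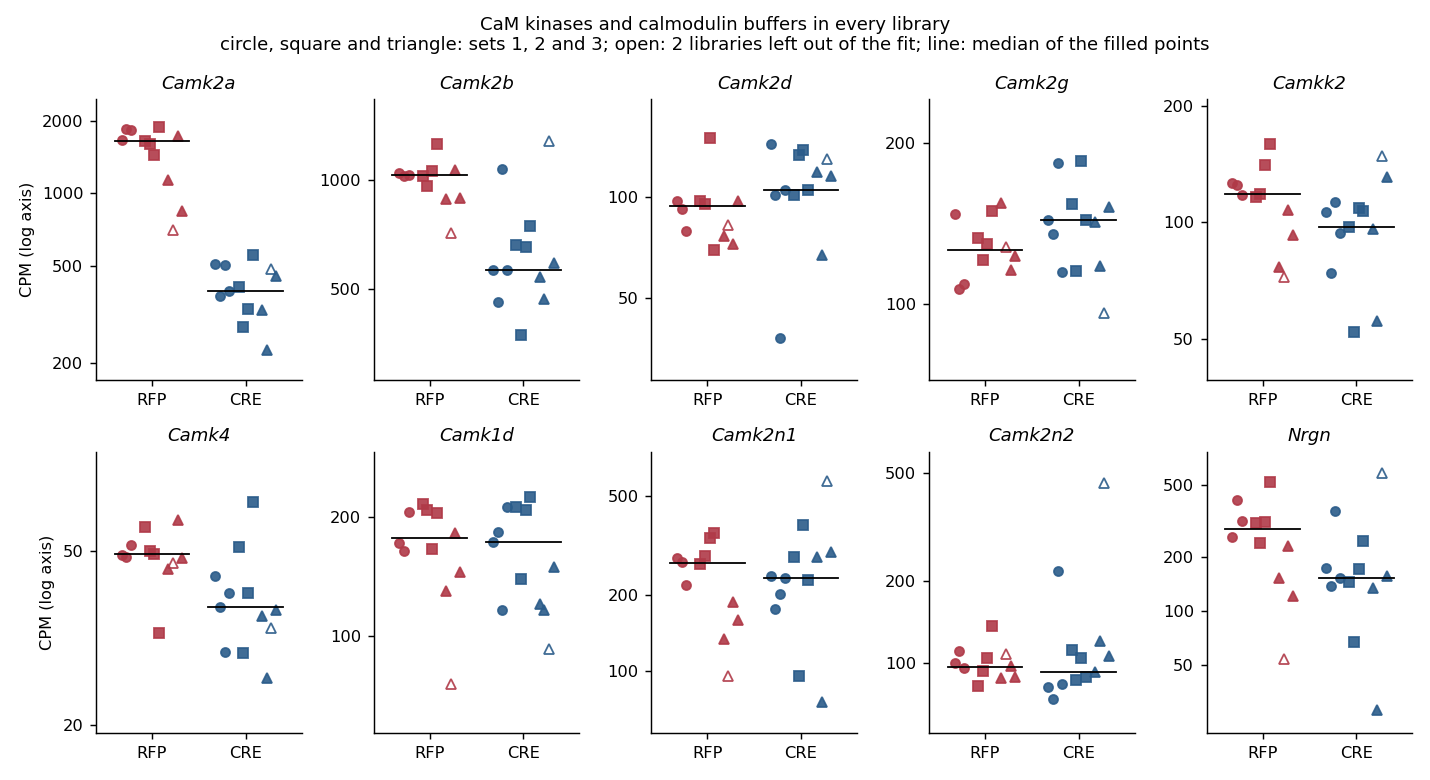
Level of each of the 10 genes in each of the 23 libraries, in CPM on a log axis, with circles, squares and triangles for sets 1, 2 and 3, open symbols for the libraries left out of the fit, and a line at the median of the filled symbols. *Camk2a* of all 11 CRE libraries lies below all 10 RFP libraries, while the groups overlap for the other 9 genes.

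The make-up of CaMKII mRNA therefore differed between the groups, as counted per kilobase of exon so that genes can be set against each other. *Camk2a* made up 52.6% to 69.0% of the 4 subunits' summed level in RFP libraries (median 65.4%) and 32.9% to 46.8% in CRE libraries (median 40.2%). No CRE library reached the lowest RFP library. *Camk2g* made up 4.11% to 8.30% in RFP and 11.9% to 18.8% in CRE libraries, again without overlap in the 21 libraries. With the libraries left out of the fit the groups overlapped for *Camk2g*, at 6.66% in CRE 3-3 and 9.77% in RFP 3-2. *Camk2b* made up 25.6% to 37.3% in RFP and 34.9% to 50.3% in CRE libraries, which overlap. The summed level of the 4 subunits was 166 to 301 CPM per kilobase in RFP (median 262) and 71.3 to 148 in CRE (median 105). It was 154 in CRE 3-3 and 140 in RFP 3-2, so the sums overlapped over all 23 libraries. The ratio of *Camk2a* to *Camk2b* was 1.41 to 2.69 in RFP and 0.708 to 1.34 in CRE. These shares rest on the same values as the differences above and carry no test. Their size also depends on the length used. For instance, *Camk2d* has 26696 bases of exon, while its longest transcript has 7911 bases. The shares were not worked out per longest transcript.

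**Figure D2:**
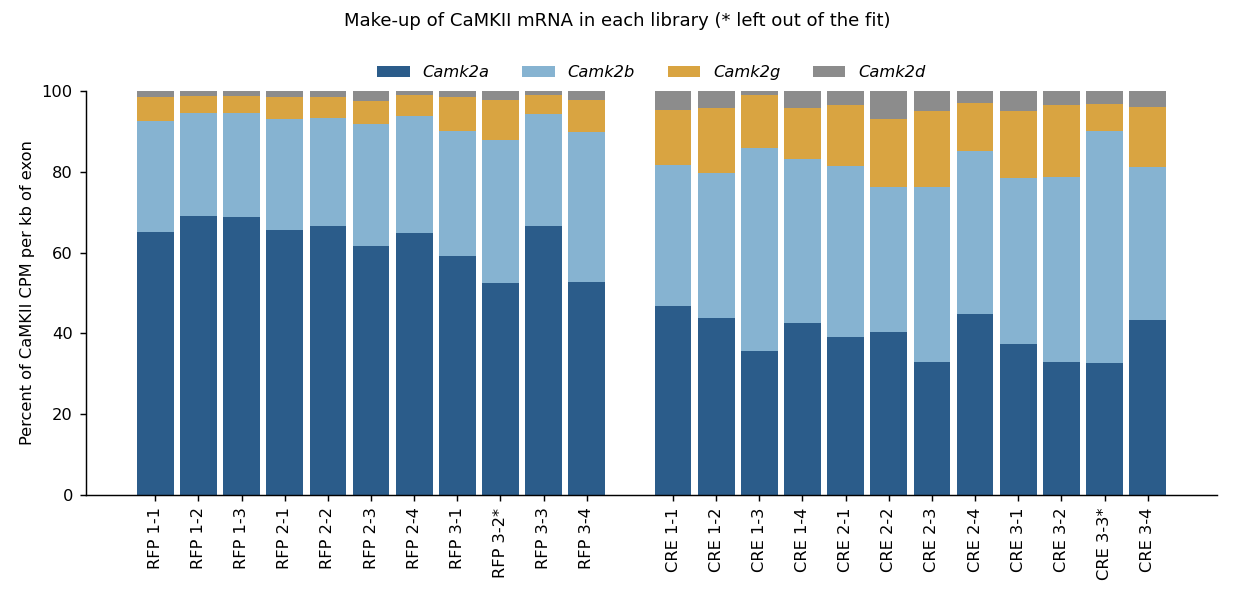
Share of each CaMKII subunit gene in the summed CaMKII level (CPM per kilobase of exon, percent) in each library, with RFP libraries on the left, CRE libraries on the right and an asterisk on libraries left out of the fit. *Camk2a* makes up 52.6% to 69.0% in the 10 RFP libraries of the fit and 32.9% to 46.8% in the 11 CRE libraries.

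The kinases of the CaMKK cascade differed by less than the *Camk2a* gene. *Camkk2* (chromosome 5, 122869233 to 122917739, minus strand) encodes the kinase that activates CaMKI and CaMKIV. It ran from 76.9 to 159.8 CPM in RFP (median 118) and from 52.2 to 131 CPM in CRE (median 97.4), with a log2 fold change of -0.35 ± 0.15. *Camk4* (chromosome 18, 33067984 to 33328821, plus strand) encodes CaMKIV, a kinase of the nucleus that phosphorylates CREB. It ran from 32.5 to 58.9 CPM in RFP (median 49.1) and from 25.6 to 64.6 CPM in CRE (median 37.3), with a log2 fold change of -0.33 ± 0.14. Without RFP 2-4 the lowest RFP library had 45.5 CPM of *Camk4*. *Camk1d* (chromosome 2, 5298268 to 5719375, minus strand), which encodes a CaMKI, ran from 129.8 to 216 CPM in RFP and from 116 to 225 CPM in CRE, with a log2 fold change of -0.11 ± 0.14. The groups overlapped for all 3 genes. *Camkk2* shares 11.5% of the stretches of 50 bases in its longest transcript with genes on the other strand.

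The CaMKII inhibitor genes overlapped between the groups too. *Camk2n1* (chromosome 4, 138181407 to 138187434, plus strand) ran from 133 to 355 CPM in RFP (median 269) and from 75.2 to 380.4 CPM in CRE (median 234), with a log2 fold change of -0.16 ± 0.22. *Camk2n2* (chromosome 16, 20437627 to 20441085, minus strand) ran from 82.3 to 137 CPM in RFP (median 96.5) and from 73.7 to 219 CPM in CRE (median 92.3), with a log2 fold change of 0.07 ± 0.15. Of the stretches of 50 bases in its longest transcript, 26.6% also occur in *Eef1akmt4*, which overlaps it on the other strand, and the strand setting of the counting is not given in the sources used here. Without CRE 1-3, which held the highest value of CRE libraries, the log2 fold change of *Camk2n2* was -0.09 and the highest CRE library had 121 CPM. With counts summed per set the log2 fold change of *Camk2n2* was negative too. The ratio of summed CaMKII to summed *Camk2n1* and *Camk2n2*, per kilobase of exon, was 2.19 to 3.52 in RFP (median 2.77) and 0.880 to 1.58 in CRE (median 1.19), without overlap. This ratio rests on the same *Camk2a* and *Camk2b* values as the differences above, its size depends on the gene lengths used, and it carries no test. In the libraries left out of the fit, CRE 3-3 had 572 CPM of *Camk2n1* and 458 CPM of *Camk2n2*, above all other libraries, and RFP 3-2 had 95.4 CPM of *Camk2n1*.

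*Nrgn* (chromosome 9, 37452275 to 37464689, minus strand) varied most of the 10 genes among the RFP libraries, with an SD of 0.63 on the log2 scale. It ran from 121 to 524 CPM in RFP (median 284) and from 28.0 to 361 CPM in CRE (median 152). The groups overlapped, and 2 CRE libraries, CRE 2-2 and CRE 3-2, lay below every RFP library of the fit. Over the 19 libraries the highest values were 416 CPM in RFP and 244 CPM in CRE. The log2 fold change was -0.86 ± 0.29, a 1.82-fold lower level. It was -0.45 ± 0.35 with all 23 libraries, in which CRE 3-3 had 587 CPM and RFP 3-2 had 53.9 CPM. It was -0.97 ± 0.31 with counts summed per set, -1.01 ± 0.42 without set 1 and -0.62 ± 0.39 without set 2. It was -0.79 ± 0.30 without RFP 1-2 and -0.71 ± 0.29 without RFP 2-4. The longest *Nrgn* transcript shares 9.93% of its stretches of 50 bases with other genes, mainly *Vsig2* on the other strand.

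The RefSeq table of promoters (build GRCm38.p6) held 6 of the 10 members. Of these 6, *Camk2b* and *Nrgn* had the lowest log2 fold changes, and their upstream sequence is shown. The 250 bases before the start of transcription are printed 5′ to 3′ on the gene's strand, in lower case with the GGGCGG box or its reverse complement and CAGATG or its reverse complement in capitals.
*Camk2b*, chr11:6065749-6065998, minus strand: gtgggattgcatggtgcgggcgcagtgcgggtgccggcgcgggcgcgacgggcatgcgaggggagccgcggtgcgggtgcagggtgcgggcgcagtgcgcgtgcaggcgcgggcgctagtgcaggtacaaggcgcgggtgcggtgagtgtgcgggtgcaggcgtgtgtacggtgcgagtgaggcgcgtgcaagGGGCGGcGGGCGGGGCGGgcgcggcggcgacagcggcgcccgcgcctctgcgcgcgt
*Nrgn*, chr9:37552746-37552995, minus strand: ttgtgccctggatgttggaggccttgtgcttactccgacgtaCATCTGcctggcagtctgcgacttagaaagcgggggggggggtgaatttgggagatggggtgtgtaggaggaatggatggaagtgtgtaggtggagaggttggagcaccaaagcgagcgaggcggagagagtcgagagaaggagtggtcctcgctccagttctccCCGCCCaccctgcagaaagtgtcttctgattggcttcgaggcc
The *Camk2b* window held GGGCGG on either strand 3 times, and the *Nrgn* window held it once and CAGATG once. Of 32536 such windows, 33.0% held GGGCGG, 14.4% CAGATG, 10.2% TGACNNNGC and 1.56% TGACGTCA on either strand, and neither window here held either of the last pair. These matches are a description of the letters in the windows.

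Of the 10 members, 3 were called by edgeR's quasi-likelihood test at a Benjamini-Hochberg adjusted p under 0.05, *Camk2a*, *Camk2b* and *Nrgn*, all lower in CRE. *Nrgn* was not among them with all 23 libraries, with no filter on low counts, with counts summed per set, without set 1 or set 2, or without RFP 1-2 or RFP 2-4. Of the 14488 genes tested, 13.8% were called lower and 16.4% higher, and 2.08% had every CRE library below every RFP library, as *Camk2a* did. Since the members were chosen on this comparison, nothing is read from their count. The median log2 fold change was -0.25 over the 10 members and 0.02 over all genes tested. In bulk RNA, fewer cells of a type and less RNA per cell cannot be told apart.

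**Figure D3:**
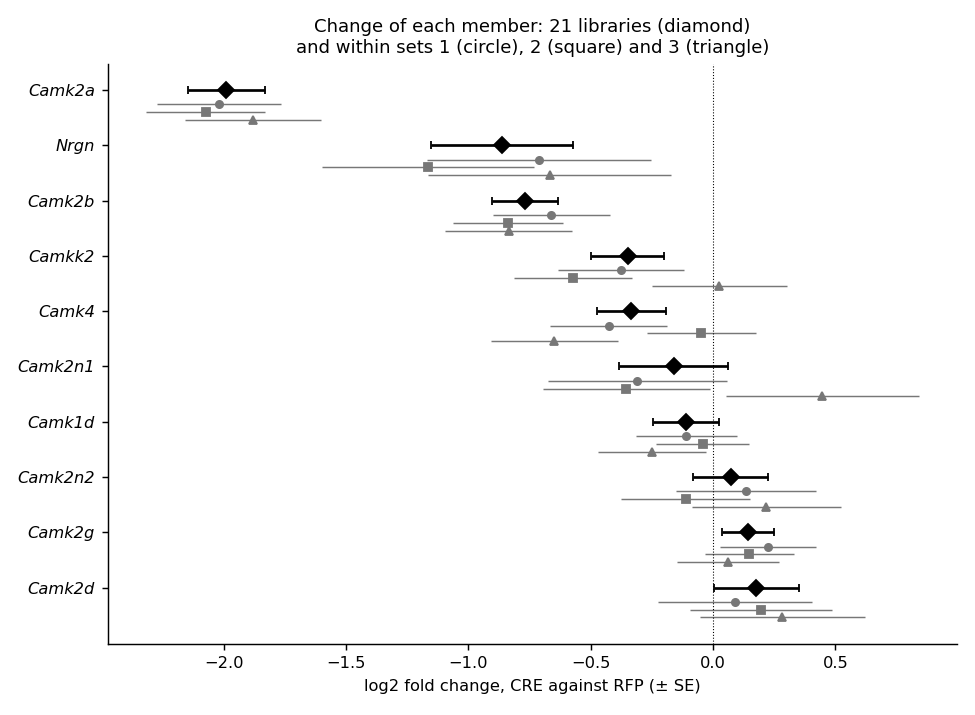
Log2 fold change of CRE against RFP with its SE for each gene, over 21 libraries (black diamonds) and within sets 1, 2 and 3 (grey circles, squares and triangles). *Camk2a* lies between -2.07 and -1.88 in the 3 sets, and *Camk2n1* and *Camkk2* have another sign in set 3 than in sets 1 and 2.

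The difference of *Camk2a* was of like size in each set, with log2 fold changes of -2.02 ± 0.25, -2.07 ± 0.24 and -1.88 ± 0.28 in sets 1, 2 and 3. Those of *Camk2b* were -0.66 ± 0.24, -0.84 ± 0.23 and -0.83 ± 0.26. *Camk2n1* had -0.31 ± 0.37 and -0.35 ± 0.34 in sets 1 and 2 and 0.45 ± 0.39 in set 3. *Camkk2* had -0.38 ± 0.26 and -0.57 ± 0.24 in sets 1 and 2 and 0.03 ± 0.28 in set 3. For both genes the RFP mean was lowest in set 3. In sets 1, 2 and 3, mean *Camk2n1* was 258, 311 and 160 CPM in RFP and 212, 247 and 219 CPM in CRE. Mean *Camkk2* was 123, 134 and 92.3 CPM in RFP and 96.6, 91.4 and 94.3 CPM in CRE. *Camk4* had -0.43 ± 0.24, -0.05 ± 0.22 and -0.65 ± 0.26 in sets 1, 2 and 3. A test of whether the difference depends on the set called none of the 10 members (edgeR, interaction of set and condition, adjusted p 0.977 to 0.990 and unadjusted p 0.218 to 0.913). It called 0.0069% of the genes tested. Over the 19 libraries the members' unadjusted p in this edgeR interaction test ran from 0.0124 to 0.870. The lowest was that of *Camk2n2* (edgeR interaction, adjusted p = 0.365), with -0.39 ± 0.14, 0.05 ± 0.13 and 0.22 ± 0.14 in sets 1, 2 and 3. In set 1 over the 19 libraries, *Camk2b* had -0.99 ± 0.16 and *Camk2d* had 0.35 ± 0.21. These p-values do not show that the sets act alike.

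Marker lists of cell types were summed beside these values. CRE 1-3 or RFP 2-4 set several of the ranges, so for those the range over the 19 libraries follows in brackets. The summed level of 11 pan-neuron markers was 6767 to 8089 CPM in RFP and 3579 to 6765 CPM in CRE [4117 to 6765], and 6 of them were called lower and 1 higher. That of 8 glutamatergic neuron markers was 1458 to 2456 CPM in RFP [1458 to 2064] and 590 to 1464 CPM in CRE [590 to 889], with 4 called lower and 1 higher. The 9 GABA neuron markers summed to 2131 to 3421 CPM in RFP and 1513 to 2821 CPM in CRE, with 2 called lower and 2 higher. The 9 astrocyte markers summed to 3693 to 7939 CPM in RFP and 1639.96 to 5276 CPM in CRE, with 4 called lower and 2 higher, so the cultures held astrocyte RNA in both groups. The 8 oligodendrocyte lineage markers summed to 647 to 1867 CPM in RFP [647 to 1716] and 425 to 1909.9 CPM in CRE [425 to 1009], with 5 called lower. The 5 markers of dividing cells summed to 154 to 264 CPM in RFP [158 to 264] and 3.13 to 167 CPM in CRE [46.1 to 167], with 4 called lower. The 6 microglia markers summed to at most 7.70 CPM in any library of the fit, and the 8 endothelial and mesenchymal markers to 14.9 to 236 CPM. No marker was at 0 in all libraries. The part of these changes in the values of the members was not tested. As a percent of the summed pan-neuron markers, *Camk2a* was at 12.5% to 26.4% in RFP (median 21.4%) and at 4.93% to 14.2% in CRE (median 7.04%), and *Camk2b* was at 12.3% to 17.6% in RFP (median 13.1%) and at 8.88% to 29.9% in CRE (median 10.7%). On this scale 10 of 11 CRE libraries lay below every RFP library for *Camk2a* and 9 of 11 for *Camk2b*, and CRE 1-3 was the highest CRE library for both. Over the 19 libraries the highest CRE values were 9.33% for *Camk2a* and 12.4% for *Camk2b*.

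The pan-neuron sum was itself lower in CRE (median 7757 CPM in RFP and 5460 CPM in CRE), so on that scale every gene of a library is divided by a smaller sum in CRE. The direction of small differences therefore turned on the scale. For 5 members, *Camkk2*, *Camk4*, *Camk1d*, *Camk2n1* and *Camk2n2*, the median was lower in CRE in CPM and higher in CRE as a percent of the neuron markers, for instance 1.51% in RFP and 1.66% in CRE for *Camkk2* and 3.33% in RFP and 4.36% in CRE for *Camk2n1*. *Camk2a*, *Camk2b* and *Nrgn* had lower medians in CRE on both scales. *Camk2d* and *Camk2g* had higher medians in CRE on both scales. As a percent of the neuron markers, the medians of *Camk2d* were 1.17% in RFP and 2.03% in CRE. Those of *Camk2g* were 1.62% in RFP and 2.74% in CRE. The highest RFP value on this scale was exceeded in 10 of 11 CRE libraries for *Camk2g* and in 7 of 11 for *Camk2d*.

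In RFP libraries, which show how these genes stand to each other without CRE, the level per kilobase of exon spanned from 157.8 CPM for *Camk2a* to 3.38 CPM for *Camk2d* as geometric means. *Camk2b* followed at 71.0, *Camk2n1* at 50.5, *Nrgn* at 47.2, *Camk2n2* at 36.9, *Camk1d* at 23.7, *Camk2g* at 13.7, *Camkk2* at 10.0 and *Camk4* at 3.57 CPM per kilobase. Of the 9 neighbours in this order, 6 differed in all 10 RFP libraries in the same direction (exact sign-flip permutation test of the log2 ratio within libraries, two-sided, p = 0.00195, adjusted p = 0.00293, n = 10). That p is the smallest the test can give with 10 libraries. The test takes the libraries as independent, though several share a biological replicate, so its p-values may be too small. The neighbours were also set by the order of the means in these same libraries. *Camk2n1* and *Nrgn* (adjusted p = 0.428, exact permutation test), *Nrgn* and *Camk2n2* (adjusted p = 0.0728, exact permutation test) and *Camk4* and *Camk2d* (adjusted p = 0.486, exact permutation test) did not differ beyond their spread. The lower part of the order depends on the length used: per length of the longest transcript, *Nrgn* stood above *Camk2n1* and *Camk2d* above *Camk4* in all 10 libraries, while *Camk1d* and *Camk2g* (adjusted p = 0.893, exact permutation test) and *Camk2g* and *Camkk2* (adjusted p = 0.237, exact permutation test) did not differ beyond their spread. *Camk2a* was above *Camk2b* and *Camk2b* above the next gene under both lengths. *Camk2a* was higher than *Camk2b* by 1.15 on the log2 scale (SD 0.28).

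**Figure D4:**
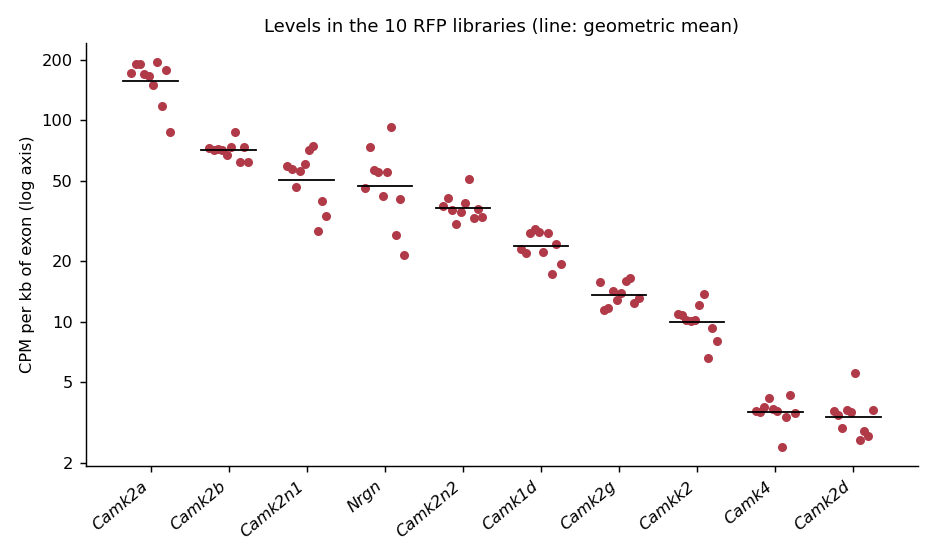
Level of the 10 genes in the 10 RFP libraries of the fit, in CPM per kilobase of exon on a log axis, with a line at the geometric mean. *Camk2a* is highest at 157.8 and *Camk2d* lowest at 3.38 CPM per kilobase.

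The libraries' values moved together for many members, as seen after the mean of each condition in each set was subtracted over 19 libraries. Pearson's r was 0.932 for *Camk2n1* and *Camkk2*, 0.880 for *Camk4* and *Camk2b* and 0.871 for *Nrgn* and *Camkk2*, while *Camk2n2* had r between -0.125 and 0.296 with the other 9. CRE 2-2 and CRE 3-2 had the lowest levels of *Camkk2*, *Camk2n1* and *Nrgn* among the CRE libraries, at 52.2 and 55.7 CPM of *Camkk2*, 95.2 and 75.2 CPM of *Camk2n1* and 67.5 and 28.0 CPM of *Nrgn*. Among the 19 libraries, CRE 3-2 also had the lowest mitochondrial share (7.0%), the highest *Rn18s-rs5* share (4.06%) and the most genes detected (23738). Its part in these correlations was not tested. *Camk2a* had r = 0.837 with *Camk4*. The genes most like *Camk2a* among 9929 genes at a mean of at least 10 CPM were *Pde1a* (r = 0.914), *Shisa6* (r = 0.913), *Adora1* (r = 0.899), *Stum* (r = 0.896) and *Robo1* (r = 0.891). These correlations share libraries, depth and base composition between genes and are given as a description.

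Of 53 other genes of calmodulin signalling, 52 were tested, and 26 were called lower (50%) and 7 higher (13.5%) in CRE, against 13.8% lower and 16.4% higher of all genes tested. Their median log2 fold change was -0.43 against 0.02 over all genes. The list was chosen with results of these libraries known, so the counts describe it and are no independent evidence of its direction. With counts summed per set, 27 were called lower and 5 higher, and without set 2, 15 were called lower. *Calm3*, which encodes calmodulin, had a log2 fold change of -0.54 ± 0.13 (edgeR adjusted p = 0.00194). *Calm2*, which encodes the same protein, had -0.43 ± 0.29 and was not called (edgeR adjusted p = 0.287), with 30.7 CPM in its lowest CRE library. It was called without CRE 1-3 (edgeR adjusted p = 0.0481) and over the 19 libraries (edgeR adjusted p = 0.0221). Of the 5 other CaM kinase family members, 3 were lower. *Pnck*, which encodes another CaMKI, had -0.92 ± 0.13 (edgeR adjusted p = 3.55e-06), the pseudokinase gene *Camkv* had -1.07 ± 0.16 (edgeR adjusted p = 1.98e-05), and *Camkk1*, the other CaMKK gene, had -0.55 ± 0.13 (edgeR adjusted p = 0.00204), which was not called without set 2. Of the 4 other calmodulin-regulated kinases tested, 0 were called by edgeR and 1, *Mylk*, had an unadjusted p under 0.05. *Mylk*, a myosin light chain kinase, had a log2 fold change of 0.73 ± 0.31 (edgeR adjusted p = 0.0767), and it was called by DESeq2 (adjusted p = 0.0499) and without CRE 1-3 (edgeR adjusted p = 0.0386). *Eef2k* had 0.14 ± 0.11 and *Dapk1* had 0.08 ± 0.10.

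All 6 postsynaptic partners of CaMKII, with *Lrrc7* read from only part of its entries, were called lower over the 21 libraries. *Grin2b*, which encodes the NMDA receptor subunit that binds CaMKII, had a log2 fold change of -0.98 ± 0.15 (edgeR adjusted p = 2.44e-05). It was at 526 to 811 CPM in RFP and at 122 to 451 CPM in CRE, without overlap. *Actn2*, an actinin, had -1.20 ± 0.30 (edgeR adjusted p = 0.0031), which was not called without set 1. *Lrrc7* was not called without set 2. *Dlg4* and *Shank3* were not called with all 23 libraries, without set 2 or without set 3, and *Shank3* was not called without CRE 1-2 or without RFP 2-4 either. Over these and the other settings the log2 fold change ran from -0.52 to -0.30 for *Dlg4* and from -0.76 to -0.23 for *Shank3*.

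Of the small calmodulin-binding proteins, 4 were lower and 1 higher. *Marcksl1* had a log2 fold change of -0.72 ± 0.12 (edgeR adjusted p = 5.24e-05), *Marcks* of -0.64 ± 0.14 (edgeR adjusted p = 0.000899), and *Gap43*, a protein of growing axons related to neurogranin, of -0.46 ± 0.11 (edgeR adjusted p = 0.0018). *Marcks* was not called without set 2 or with all 23 libraries, where it had -0.25. *Pcp4*, the remaining lower gene, lost its call in 5 of 13 other settings and in 11 of 21 fits that left out 1 library each. *Pcp4l1*, the higher one, lost it in 4 of 13 and 3 of 21. Of the 8 calcineurin genes, 3 were lower and 1 higher. *Ppp3cb* and *Ppp3ca*, which encode catalytic subunits, had -0.96 ± 0.15 (edgeR adjusted p = 3.44e-05) and -0.81 ± 0.14 (edgeR adjusted p = 9.06e-05), and *Rcan1*, a calcineurin regulator, had 0.56 ± 0.12 (edgeR adjusted p = 0.000763). *Ppp3cc*, the other catalytic subunit gene, was not called (edgeR adjusted p = 0.990). Of the 2 phosphatase genes that act on CaM kinases, *Ppm1e* had -0.91 ± 0.13 (edgeR adjusted p = 1.03e-05) and *Ppm1f* had 0.25 ± 0.09 (edgeR adjusted p = 0.0405), a call that was lost in 9 of 13 other settings and in 15 of 21 fits that left out 1 library each.

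Of the 7 calmodulin-regulated cyclases, phosphodiesterases and NO synthase, 4 were lower and 1 higher. The call of *Adcy3*, one of the lower genes (edgeR adjusted p = 0.0491), was lost in 8 of 13 other settings and in 14 of 21 fits that left out 1 library each. *Nos1*, the neuronal NO synthase, had a log2 fold change of -1.42 ± 0.20 (edgeR adjusted p = 5.66e-06), *Adcy1* of -0.58 ± 0.12 (edgeR adjusted p = 0.000614) and *Pde1c* of 1.63 ± 0.28 (edgeR adjusted p = 6.69e-05). Of the 12 nuclear targets of CaM kinases, 3 were lower and 3 higher, and over the 19 libraries 5 were lower and 3 higher. The called genes of this group that are not named here each lost their call without set 2 or without set 3. *Hdac5*, a deacetylase that leaves the nucleus when phosphorylated, had 0.88 ± 0.19 (edgeR adjusted p = 0.00107), *Crtc3*, a coactivator of CREB, had 0.64 ± 0.15 (edgeR adjusted p = 0.00156) and *Camta1*, a calmodulin-binding transcription activator, had -0.67 ± 0.13 (edgeR adjusted p = 0.000459). Over the 19 libraries *Hdac5* had 0.65, *Crtc3* 0.53 and *Camta1* -0.64.

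**Figure D5:**
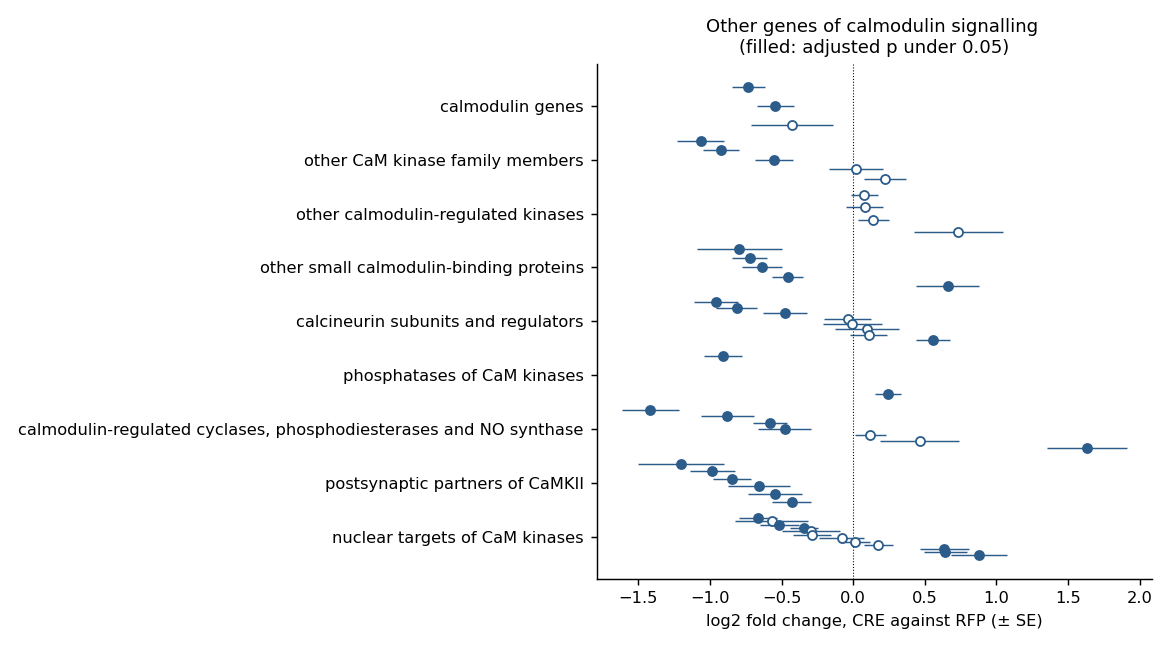
Log2 fold change of CRE against RFP with its SE for 52 other genes of calmodulin signalling, by group, with filled points for those called by edgeR at an adjusted p under 0.05. All 6 postsynaptic partners lie below 0, and the other CaM kinase family members and the nuclear targets lie on both sides of 0.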

How the data were processed

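RNA of hippocampal cultures was sequenced in 23 libraries, prepared with Illumina Stranded mRNA Prep. The authors aligned the reads with STAR 2.7.8a to GRCm39 and deposited raw counts per gene, made with featureCounts 1.5.0-p1 (versions from the submitters' processing notes). Groups were read from the treatment labels. Genes were named with the GENCODE M39 annotation of GRCm39.

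edgeR 4.0.16 in R 4.3.3 (filterByExpr, TMM, robust quasi-likelihood test, Benjamini-Hochberg adjustment over 14488 genes) was the main test, and an adjusted p under 0.05 was called. The SE was taken from the log2 fold change and the F statistic. CPM used TMM factors over all 23 libraries. DESeq2 1.42.0 and 12 other settings were alternatives, and leaving out each of the 21 libraries in turn was added after seeing the data. The test was run on simulated counts with known changes. These had independent libraries at a fixed spread, so they say nothing on libraries that share a biological replicate or stand apart. Figures were drawn with matplotlib.

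The members and gene lists were chosen with earlier results of these data known. The text names all 10 members, the calmodulin genes, the 3 genes of each other pathway group with the smallest p, and the 5 genes most like *Camk2a*; *Lrrc7*, *Dlg4*, *Shank3*, *Pcp4*, *Pcp4l1*, *Ppp3cc* and *Adcy3* were named after their values were seen. Of the genes this rule takes, 2 are not reported here. Methods of the study name CRE 1-3 and CRE 3-3 as removed, its table of counts leaves out CRE 3-3 and RFP 3-2, and its reporting summary names none. Methods give a harvest one day later than the labels.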

Additional observations from a re-analysis of the deposited data

Results flagged for a closer look

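Within the RFP group, 4 single values lay far from the other 9, by Dixon's rule at 95%, which by chance marks about 1 in 20 groups, while 10 members were tested. Of these, 3 were in RFP 2-4, one of the libraries that stand apart: *Camk2b* at 1253 CPM and *Camk2n2* at 137 CPM, both the highest, and *Camk4* at 32.5 CPM, the lowest. The other was *Camk2d* in RFP 2-3 at 149 CPM, the highest. Over the 19 libraries, which leave out RFP 2-4, the log2 fold changes were -0.85 for *Camk2b*, -0.03 for *Camk2n2* and -0.35 for *Camk4*.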

How the results depend on the processing

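The members were chosen on this comparison in these libraries, so repeated calls of theirs are no support. Over the 13 other settings and without each of the 21 libraries, log2 fold changes ran from -2.08 to -1.87 for *Camk2a*, from -0.88 to -0.58 for *Camk2b* and from -1.06 to -0.45 for *Nrgn*. *Camk2n2* was at 0.42 with all 23 libraries. *Camk2n1* turned positive with all 23 libraries, at 0.11, and without set 2. Calls of *Camkk2* appeared without CRE 1-3, CRE 3-4 or RFP 3-1, without set 3 and with the GC trend removed, and calls of *Camk4* without CRE 2-1, CRE 2-4 or RFP 2-4, without set 2 and over 19 libraries. Genes called were 6920 with no filter on low counts (4367 higher, more genes being tested). They were 2114 without set 2 (803 lower, 1311 higher, and 15 pathway genes lower). Without set 1, 3730 genes were called, with 27 pathway genes lower, and without set 3, 3365 genes, with 20. All 3 of these fits have fewer libraries, and the cause of their difference was not tested. Without 1 library, the genes called numbered 4031 to 5507. The set test called 0 genes with all 23 libraries, 36 over 19 libraries and 88 with no filter, and no member in any. At an unadjusted p under 0.05 (edgeR) there were 614, 1375 and 1998 genes in these fits. The cause was not tested. With the replicate block (same set and replicate number as pairs), 3121 genes and the same number of members, 3, were called. Libraries of the same set and replicate number shared little deviation from their group means, with correlations from -0.057 to 0.11. These correlations cannot tell whether the cultures were handled as pairs, and the labels do not say. Per longest transcript, 7 of 9 neighbours differed, in another order. In the 19 libraries no member had fewer than 250 counts.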
